A study of Mus musculus with 51 samples.

Results

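The step from embryonic day E12.5 to E13.5 of the mouse hindlimb was described from 10 of the 51 arrays of the series, 5 of E12.5 hindlimb buds and 5 of E13.5 hindlimb buds. They were chosen by the tissue and stage in their titles, and no measured value entered that choice. Both groups are wild-type FVB mice without any treatment, and per the methods each sample is the limb tissue of 1 embryo and the embryos of a stage come from 1 litter. Stage and litter therefore cannot be told apart. The p-values rest on the spread between littermates, pooled over the 14 groups of the series rather than these 10 arrays alone. Total RNA was labelled in 2 rounds of amplification and hybridised to Affymetrix mouse genome arrays of 45101 probe sets, which read a transcript near its 3′ end. Beside these groups, the same step of the forelimb (5 and 5 arrays) and the preceding hindlimb step from E11.5 (5 arrays) are given for comparison.

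Between these days the hindlimb bud turns from a paddle into a limb with separate tissues. Mesenchyme of the lateral plate condenses into cartilage models of the bones, surrounded by a perichondrium from which osteoblasts arise, while tendon and dermal fibroblasts lay down fibrillar collagens. Muscle comes from cells that migrated in from the somites and now fuse into contractile fibres. The apical ectodermal ridge, a strip of epithelium at the tip that drives outgrowth with fibroblast growth factors, regresses as the digits form and the tissue between them is lost. Hindlimb buds form and mature later than forelimb buds.

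Levels are log2 intensities, and differences are log2 fold changes of E13.5 minus E12.5, so that 1 is a 2-fold change. Levels of different genes are not comparable, because each depends on its probes. A summed linear intensity of a list therefore follows its brightest genes most, and is given only to set the stages side by side. Genes were called up-regulated or down-regulated at a fold change of 2 or greater and a Benjamini-Hochberg adjusted p under 0.001 over all genes, from limma. Fewer cells of a type and less RNA per cell cannot be told apart in such whole-tissue RNA.

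Markers of the hindlimb were read on the 10 arrays. Pitx1 and Tbx4, transcription factors of the hindlimb field, read 9.90 to 10.76 and 8.91 to 9.82. Tbx5, their forelimb counterpart, read 5.66 to 6.27. Limb identity rests on the array titles, because levels of different genes are not comparable. The mesenchymal factors Prrx1, Prrx2, Twist1, Msx1 and Tbx15 read 8.75 to 11.20. Markers of liver (Alb, Afp, 3.31 to 4.51) and heart muscle (Myl7, Nppa, 3.35 to 4.67) lay near the low end of the scale. The liver marker Apoa1 read higher than these, at 5.05 to 5.33 at E12.5 and 4.74 to 5.03 at E13.5. In each group 2 of the 5 embryos expressed Xist. No label of these 10 arrays contradicts another, while 2 other arrays of the series have contradictory labels.

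Within each stage the arrays correlated at a mean of 0.9939 to 0.9968. At E12.5, replicate 1 stood apart in the direction away from E13.5. It was the farthest E12.5 array in 236 of the 354 called genes, against 22 to 38 for the others. These genes were called with the same arrays, which may favour an array that lies away from the other stage. At E13.5, replicate 4 had the lowest correlation, and the probe set at the 5′ end of 18S ribosomal RNA read 6.24 on it against 12.62 to 13.07 on the other 4 and 13.36 to 13.96 at E12.5. Replicate 4 was also the E13.5 array farthest from E12.5 in 154 of the 354 called genes, against 20 to 74 for the others. It was the nearest in 64, against 31 to 99. The same limit holds for these counts. The distance between 3′ and 5′ probe sets, a sign of RNA and label length, was larger at E13.5 for Tfrc (1.90 to 2.20 against 1.33 to 1.52), Pcx (1.26 to 1.53 against 0.85 to 1.01) and Actb (0.36 to 0.62 against 0.23 to 0.27). For Gapdh it ranged from -0.10 to 0.07 over both stages. The part of these differences in the results was not tested.

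Among genes that changed by 2-fold or more, more rose than fell from E12.5 to E13.5, while among smaller changes more fell. Of 18194 genes, 282 were up-regulated (1.55%) and 72 down-regulated (0.396%). The 10 genes with the highest fold changes were Aspn, Chodl, Myh8, Abi3bp, Tceal7, Comp, LOC102631979, Hypk, Atp1b4 and Epyc, at 3.54 down to 2.74. The 10 lowest were Calb2, Hbb-bh1, Hsd11b2, Pmaip1, Cbln1, Frzb, Hba-x, Zic5, Rasgef1b and Hoxd12, at -3.45 to -1.59. None of the 354 called genes had overlapping arrays, as was true of 6008 of all genes (33%). Without E12.5 replicate 1 there were 252 and 65 calls. At an adjusted p under 0.05 with no fold threshold, 2509 genes (13.8%) were higher and 4387 (24.1%) lower. The median gene changed by -0.07.

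**Figure D1:**
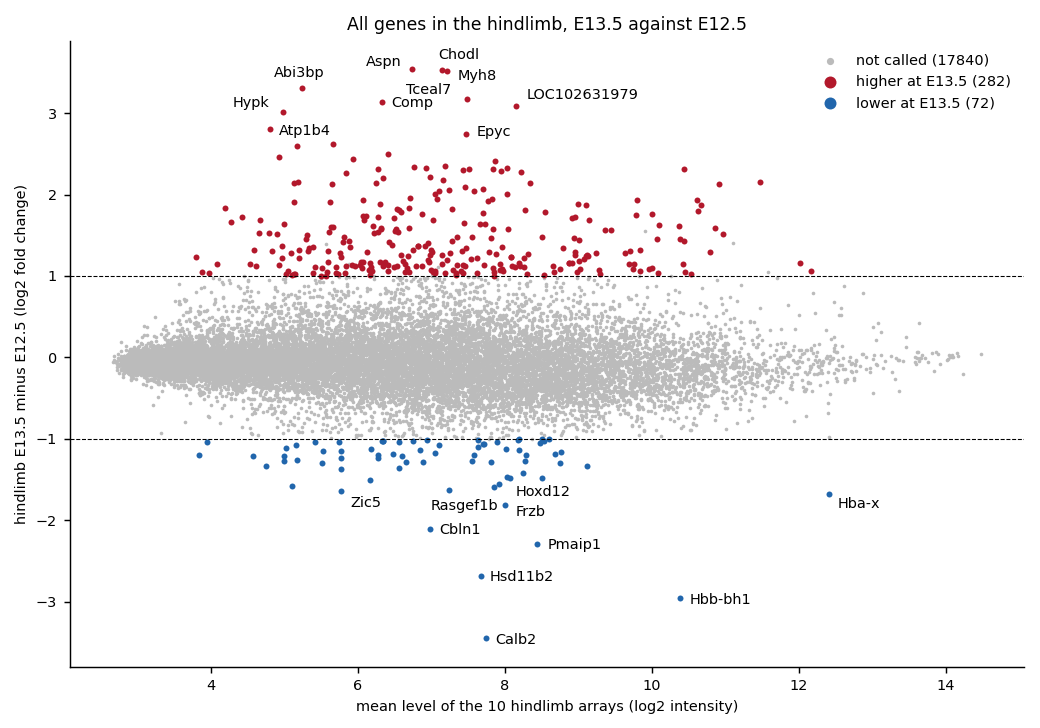
Each point is 1 of the 18194 genes, with its mean log2 intensity over the 10 hindlimb arrays on the x axis and its log2 fold change from E12.5 to E13.5 on the y axis. Red points are the 282 up-regulated and blue points the 72 down-regulated genes, dashed lines mark a 2-fold change, and the 10 highest and 10 lowest genes are named.

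Before the tissues are taken in turn, the lists show where the calls lay. Over 36 lists of limb, tissue, organ and pathway genes with 810 genes on the arrays, 95 genes were up-regulated and 15 down-regulated. Over all genes the shares were 1.55% and 0.396%, to be set beside each list count. Lists of cartilage matrix, tendon, muscle contraction and fibrous matrix had the most members up-regulated, and the called members of the erythroid, ridge, progenitor, HoxA and HoxD, and heterochronic lists were all down-regulated.

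**Figure D2:**
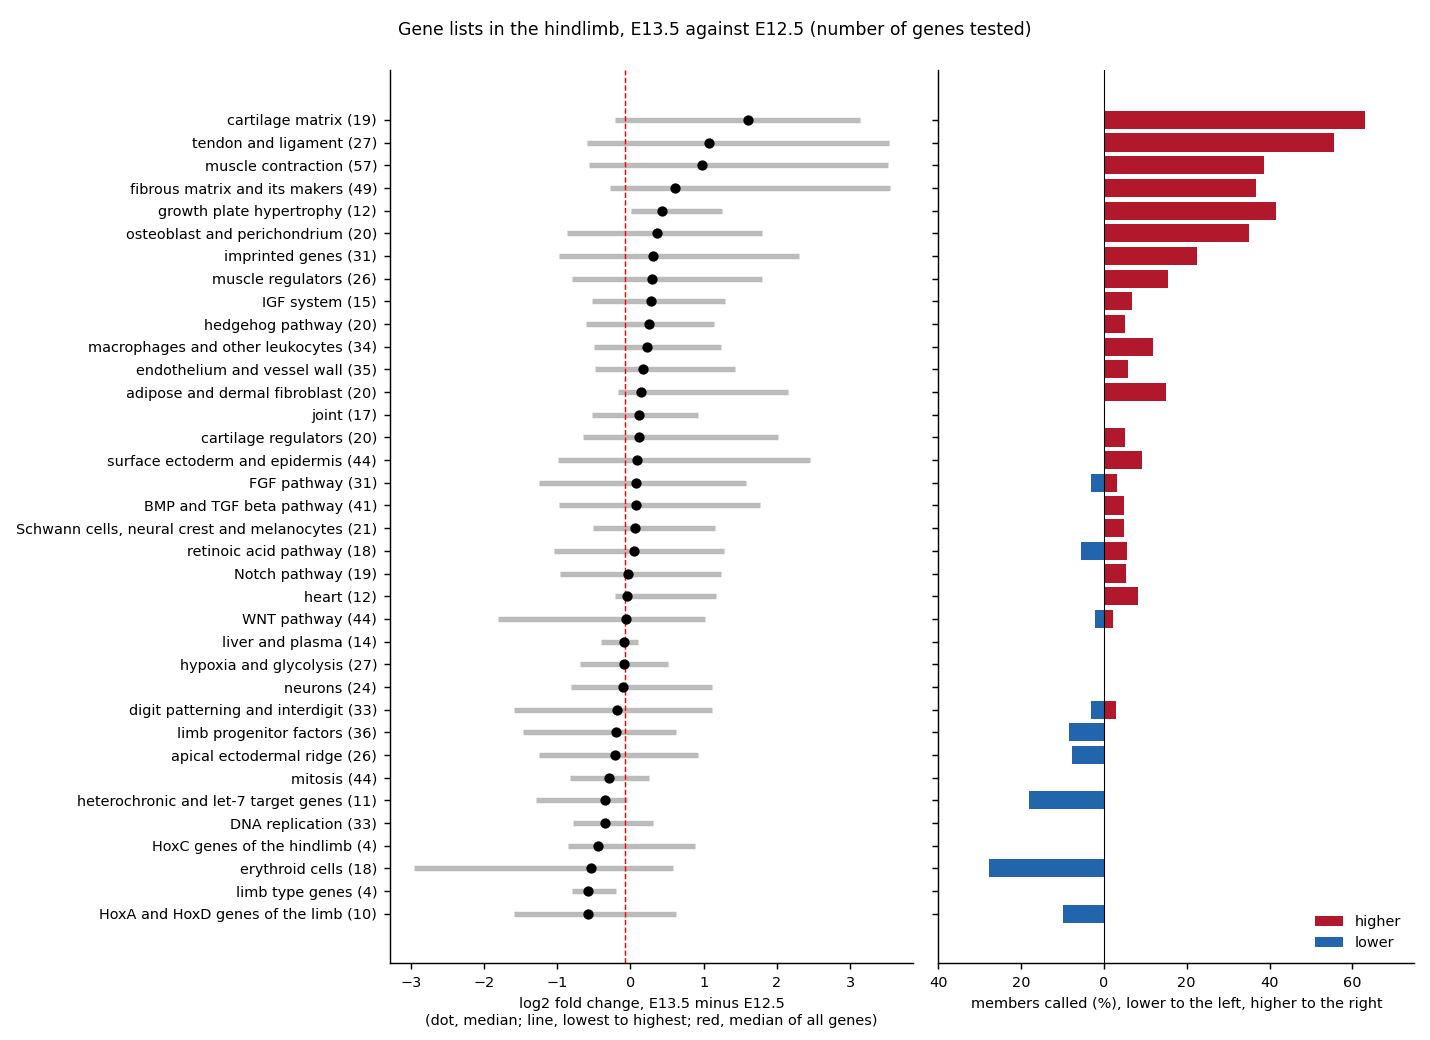
For each gene list (number of genes tested in brackets), the left panel gives the median (dot) and the lowest and highest (line) log2 fold change from E12.5 to E13.5, with the median of all genes, -0.07, as a dashed red line. The right panel gives the percentage of members up-regulated (red, to the right) and down-regulated (blue, to the left). Cartilage matrix has the highest median, 1.61.

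Cartilage matrix genes were up-regulated together. Of 19 genes tested, 12 were up-regulated and none down-regulated, with a median of 1.61. The list's summed linear intensity was 6503 to 10189 at E12.5 and 16142 to 19668 at E13.5. Comp, a matrix protein of cartilage and tendon, read 4.61, 4.94, 4.83, 4.65 and 4.77 in the E12.5 embryos and 7.64, 8.34, 7.73, 8.39 and 7.39 in the E13.5 embryos. All E12.5 values lay close together near the low end of the scale, and E13.5 replicates 2 and 4 were the highest. Comp thus rose by 3.14 (standard error 0.20, adjusted p = 3.36e-16). Epyc, a small proteoglycan of cartilage, read 4.40, 6.28, 6.30, 6.72 and 6.81 and then 8.79, 9.15, 8.57, 9.30 and 8.39, a change of 2.74 (standard error 0.26, adjusted p = 1.36e-11). Here E12.5 replicate 1 lay far below its littermates.

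Acan, the large aggregating proteoglycan that gives cartilage its stiffness, and Matn1, a matrilin of cartilage, showed the same spread. Acan read 5.63, 7.10, 6.75, 7.00 and 6.81 at E12.5 and 8.85, 9.49, 8.88, 9.61 and 8.54 at E13.5, a rise of 2.41 (standard error 0.22, adjusted p = 8.48e-12). Matn1 rose from 5.21, 6.82, 7.10, 7.38 and 6.91 to 8.91, 9.02, 9.01, 9.41 and 8.65, a rise of 2.31 (standard error 0.28, adjusted p = 6.09e-09). In both genes every E13.5 embryo lay above every E12.5 embryo.

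Col2a1, the main fibrillar collagen of cartilage, was already at 11.16 to 11.81 at E12.5 and reached 12.53 to 12.89, a change of 1.06 (adjusted p = 1.42e-06). Its partners Col11a1 (1.61) and Col11a2 (1.61), the linking protein Hapln1 (2.07), Matn3 (1.69), Snorc (1.74), Cnmd (1.73) and Col27a1 (1.34) also rose. The type IX collagen genes Col9a1 (-0.21), Col9a2 (0.31) and Col9a3 (0.91) and the genes Ucma, Chadl, Matn4 and Prelp (-0.09 to 0.64) did not pass.

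The regulators of cartilage did not follow its matrix. Of 20 regulator genes, 1 was up-regulated and none down-regulated, with a median of 0.12. The called gene was Cytl1, a secreted factor of chondrocytes, with a change of 2.01 (standard error 0.20, adjusted p = 3.18e-11). Sox9, the transcription factor that starts chondrogenesis, read 7.73 to 7.88 at E12.5 and 7.55 to 7.89 at E13.5, so that its groups overlapped (-0.10, adjusted p = 0.45). Its partners Sox5 and Sox6 had -0.45 and 0.11. None of the 17 joint genes was called, and their largest change was that of the hyaluronan receptor Cd44 (0.93, adjusted p = 1.25e-12). Its brightest probe set alone gave 1.78. Gdf5, the growth factor that marks joint interzones, changed by 0.12.

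Several genes of mineralising cartilage and bone rose. Of 12 genes of growth plate hypertrophy, 5 were up-regulated (Alpl, Ibsp, Mef2c, Panx3, Phex), and of 20 genes of osteoblast and perichondrium, 7 were (Alpl, Col1a1, Col1a2, Cthrc1, Ibsp, Panx3, Phex), with medians of 0.42 and 0.37. Col1a1, a chain of the main collagen of bone, tendon and skin, rose from 9.27, 9.99, 9.86, 9.80 and 9.72 to 11.59, 11.70, 11.29, 11.83 and 11.23 (1.80, standard error 0.19, adjusted p = 2.58e-10). The other chain, Col1a2, rose by 1.45 (adjusted p = 1.95e-18), although its brightest probe set alone gave 0.78. Every E13.5 embryo lay above every E12.5 embryo in both.

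Ibsp, a sialoprotein of mineralising matrix, was the most variable of them. It read 3.14, 3.25, 3.26, 3.05 and 3.17 at E12.5, near the low end of the scale, and 3.58, 5.44, 4.16, 5.26 and 3.59 at E13.5. Replicates 2 and 4 of E13.5 were thus well above the E12.5 values and replicates 1 and 5 little above them. Ibsp changed by 1.23 (standard error 0.22, adjusted p = 1.23e-05). The call is lost in several alternatives: without E13.5 replicate 2 the change was 0.97, its brightest probe set alone gave 0.57, and fitted on the 10 hindlimb arrays alone the adjusted p was 7.81e-03. Phex (1.15), an enzyme of mineralisation, Panx3 (1.15), a channel of hypertrophic chondrocytes, and Alpl (1.03), the alkaline phosphatase of bone, were up-regulated. From their brightest probe sets alone, Phex had 2.20 and Panx3 3.36. Col10a1, the collagen of hypertrophic chondrocytes, read 3.92 to 4.30 and then 4.02 to 4.78 (0.35, adjusted p = 0.113), and Mmp13 changed by 0.01. Ihh, which hypertrophic cartilage secretes, had 0.38 (adjusted p = 0.0726) and Sp7, an osteoblast transcription factor, 0.40 (adjusted p = 0.00601).

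**Figure D3:**
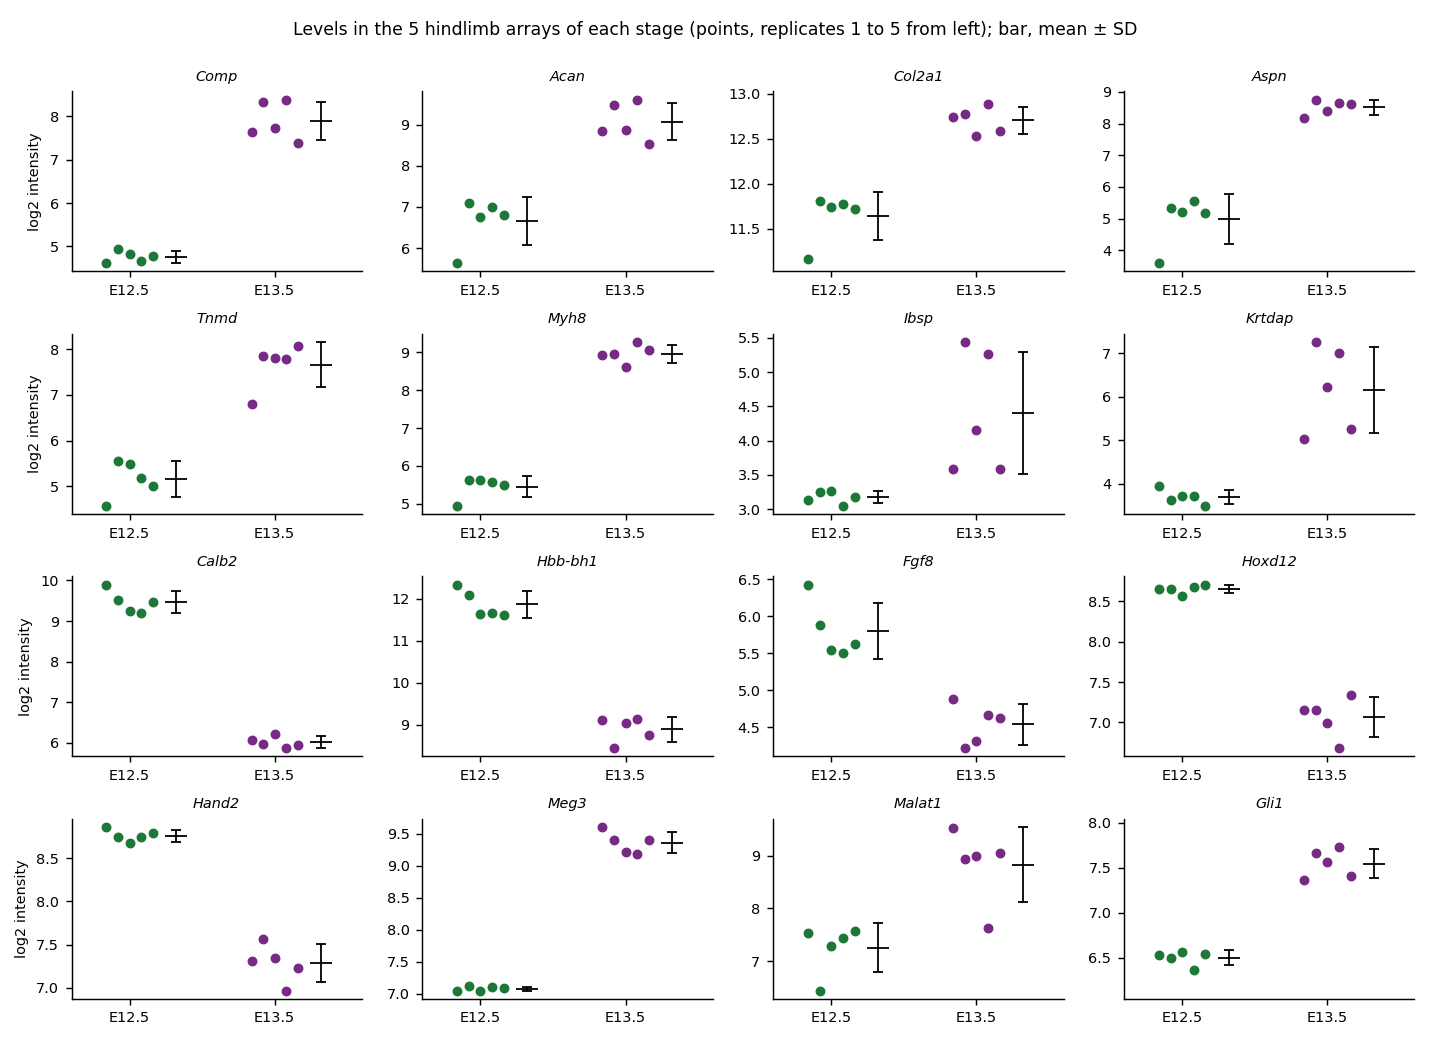
Log2 intensity of 16 genes in each of the 5 hindlimb arrays at E12.5 (green) and E13.5 (purple), replicates 1 to 5 from left to right, with the mean and SD as a bar; each panel has its own y axis, which does not start at 0. The stages do not overlap in any panel, as was true of all 354 called genes and of 33% of all genes. E13.5 replicates 2 and 4 are the highest in Ibsp (5.44 and 5.26), Krtdap (7.26 and 7.00) and Comp (8.34 and 8.39).

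Members of the tendon and fibrous matrix lists also rose. Of 27 tendon and ligament genes, 15 were up-regulated and none down-regulated (median 1.08), against 1.55% up-regulated over all genes. Of 49 genes of fibrous matrix and its makers, 18 were up-regulated and none down-regulated (median 0.61). The lists overlap, and Bgn, Col14a1, Col5a1, Col5a2, Col6a1, Col6a2, Col6a3, Dcn and Tnc are counted as up-regulated in both. The summed linear intensity of the tendon list was 8693 to 12908 at E12.5 and 24282 to 29812 at E13.5. Aspn, a small leucine-rich proteoglycan, had the highest fold change of all genes. It read 3.59, 5.34, 5.20, 5.56 and 5.18 at E12.5 and 8.16, 8.75, 8.38, 8.66 and 8.62 at E13.5, a change of 3.54 (standard error 0.23, adjusted p = 1.69e-16). Replicate 1 was the lowest array of both stages.

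Chodl, a membrane lectin placed in the tendon list, followed at 3.53 (standard error 0.23, adjusted p = 6.19e-16), from 5.07 to 5.65 at E12.5 to 8.72 to 9.13 at E13.5. Tnmd, a membrane protein of mature tendon cells, rose from 4.58, 5.56, 5.48, 5.19 and 5.02 to 6.81, 7.84, 7.81, 7.79 and 8.07 (2.50, standard error 0.22, adjusted p = 1.54e-12). In Tnmd, E13.5 replicate 1 lay below the other 4 of its stage and still above all E12.5 embryos. Thbs4, a thrombospondin of tendon, rose by 2.35 and Col6a3, a chain of the beaded collagen around cells, by 2.31. Scx, the transcription factor that sets tendon progenitors apart, changed in the other direction below the fold threshold, from 5.48 to 5.67 at E12.5 to 5.08 to 5.23 at E13.5 (-0.42, adjusted p = 4.36e-04), and Mkx, a later tendon factor, had 0.70.

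In the fibrous matrix list, Postn, a matricellular protein of periosteum and fascia, rose from 9.90, 10.72, 10.66, 10.23 and 10.44 to 12.56, 12.57, 12.33, 12.69 and 12.60 (2.16, standard error 0.21, adjusted p = 2.27e-11). Col14a1, a fibril-associated collagen, rose from 5.34 to 5.95 at E12.5 to 7.50 to 7.96 at E13.5 (1.96, adjusted p = 2.41e-17), and its brightest probe set alone gave 3.02. Abi3bp, an extracellular matrix protein outside these lists, went from 3.25, 3.79, 3.82, 3.56 and 3.55 to 6.63, 6.78, 7.26, 7.05 and 6.77 (3.31, standard error 0.12, adjusted p = 5.23e-24). The first 5 values lie near the low end of the scale. Of 20 genes of adipose and dermal fibroblasts, 3 were up-regulated, against 1.55% over all genes. These were Dpt (2.15), a dermal matrix protein, Dlk1 (1.24), a membrane protein of preadipocytes, and Cebpa (1.07), a transcription factor of fat cells that had 0.96 without E13.5 replicate 2 and 0.98 without E13.5 replicate 4.

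Members of the muscle contraction list rose. Of 57 contraction genes, 22 were up-regulated and none down-regulated, with a median of 0.98 and a summed linear intensity of 13747 to 23124 at E12.5 and 37796 to 48425 at E13.5. Myh8, the perinatal myosin heavy chain, read 4.95, 5.63, 5.62, 5.58 and 5.49 at E12.5 and 8.94, 8.95, 8.61, 9.27 and 9.06 at E13.5 (3.51, standard error 0.21, adjusted p = 1.83e-17). Myh3, the embryonic myosin heavy chain, was already at 9.00 to 10.19 and reached 11.80 to 12.11 (2.13, standard error 0.43, adjusted p = 9.10e-05). Myh7, the slow myosin heavy chain, rose by 2.29 and Neb, the giant ruler protein of the thin filament, by 2.32. The myosin genes are near-identical copies of each other in part of their sequence, and how far their probes cross-hybridise was not tested.

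Atp1b4, a muscle protein related to the beta subunit of the sodium pump, went from 3.05, 3.54, 3.64, 3.41 and 3.35 to 6.07, 5.82, 6.39, 6.86 and 5.85 (2.80, standard error 0.15, adjusted p = 9.96e-19). Of 26 muscle regulators, 4 were up-regulated, against 1.55% over all genes. They were the acetylcholine receptor subunits Chrnb1 (1.79) and Chrna1 (1.12), the scaffold Ttn (1.76, or 2.67 from its brightest probe set alone) and the transcription factor Mef2c (1.25). Chrna1 had 0.98 without E12.5 replicate 1. The determination factor Myod1 read 5.57 to 5.83 and then 5.58 to 5.80 (0.02, adjusted p = 0.909). Myog, which starts differentiation, read 9.83 ± 0.24 and then 10.62 ± 0.19 (SD, n = 5 each, change 0.78, adjusted p = 0.148). The p-value of Myog uses the spread over all 14 groups of the fit, not that of these 10 arrays alone. Pax3, a factor of migrating muscle progenitors, had -0.68.

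Promoters of 3 muscle genes that rose together are shown because they hold the E-box CAGCTG, the letters bound by factors of the Myod1 family. They are RefSeq sequences of build GRCm38.p6 that run from 250 bases before to 50 bases after the annotated start, read along the gene's strand, with each CAGCTG and TATAAA in capitals.
Acta1 (skeletal alpha-actin, chr8:123894726-123895025, minus strand): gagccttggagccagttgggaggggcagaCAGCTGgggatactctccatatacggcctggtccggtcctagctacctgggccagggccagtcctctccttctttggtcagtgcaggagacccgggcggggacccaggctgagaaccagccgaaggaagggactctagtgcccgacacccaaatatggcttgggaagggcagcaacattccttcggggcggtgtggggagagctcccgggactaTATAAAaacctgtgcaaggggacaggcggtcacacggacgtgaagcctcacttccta
Mylpf (fast skeletal myosin light chain, chr7:127211358-127211657, plus strand): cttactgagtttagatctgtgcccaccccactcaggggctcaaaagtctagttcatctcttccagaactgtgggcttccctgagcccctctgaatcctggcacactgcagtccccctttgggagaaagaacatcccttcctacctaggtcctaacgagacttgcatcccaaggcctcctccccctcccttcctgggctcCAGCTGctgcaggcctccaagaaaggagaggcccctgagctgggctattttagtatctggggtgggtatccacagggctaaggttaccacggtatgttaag
Chrna1 (acetylcholine receptor subunit, chr2:73580289-73580588, minus strand): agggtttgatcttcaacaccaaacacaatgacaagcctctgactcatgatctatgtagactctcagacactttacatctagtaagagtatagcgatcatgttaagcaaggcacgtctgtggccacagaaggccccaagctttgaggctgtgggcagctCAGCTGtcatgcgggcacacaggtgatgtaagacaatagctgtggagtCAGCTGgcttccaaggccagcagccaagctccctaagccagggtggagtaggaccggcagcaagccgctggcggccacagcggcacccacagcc
Acta1 rose by 1.93, from 8.95, 9.87, 9.92, 9.87 and 9.65 to 11.57, 11.49, 11.30, 11.92 and 11.62, and Mylpf by 1.52, from 10.21 ± 0.41 at E12.5 to 11.74 ± 0.20 at E13.5 (SD, n = 5 each). CAGCTG, which reads the same on both strands, lay in 4353 of 27025 promoters of this length (16.1%). It was in 5 of the 18 promoters matched to up-regulated contraction genes (27.8%) and in 16 of the 27 matched to the other tested contraction genes (59.3%). The motif TATAAA, searched on both strands, was in 14.2% of all promoters and in 5 of the same 18. The up-regulated genes were thus not the ones that held CAGCTG more often within the list, and a match of letters is not a binding site.

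A few genes of the early limb bud fell, in lists most of whose members did not pass. Of 36 progenitor factors, 3 were down-regulated and none up-regulated (median -0.20), of 26 ridge genes 2 were down-regulated and none up-regulated (median -0.21), and of 10 HoxA and HoxD genes 1 was down-regulated (median -0.58), against 0.396% over all genes. Hand2, a transcription factor of the posterior limb bud, read 8.86, 8.74, 8.67, 8.74 and 8.79 at E12.5 and 7.31, 7.57, 7.35, 6.97 and 7.23 at E13.5 (-1.47, standard error 0.11, adjusted p = 5.75e-14), with -0.95 from its brightest probe set alone. Lhx9, a LIM factor of distal mesenchyme, fell by 1.29 and Sall4, a zinc finger factor of early limb and stem cells, fell by 1.21, with -1.96 from its brightest probe set alone. Other mesenchymal factors changed less, among them Tbx15 (-0.81), Shox2 (-0.78), Prrx2 (-0.69) and Lhx2 (-0.76).

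Fgf8, the fibroblast growth factor that marks the whole ridge, read 6.43, 5.88, 5.55, 5.51 and 5.63 at E12.5 and 4.89, 4.22, 4.31, 4.67 and 4.63 at E13.5. It fell by 1.26 (standard error 0.23, adjusted p = 1.56e-05), and had fallen by 1.86 in the preceding step, a comparison that shares the E12.5 arrays. Dlx1, a homeobox gene of ridge and ectoderm, fell by 1.04 (adjusted p = 1.30e-07), with -0.98 without E12.5 replicate 2 and -0.91 without E13.5 replicate 5. The other ridge factors Bhlha9 (-0.92) and Sp8 (-0.75) did not reach a 2-fold change.

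Hoxd12 was the only HoxA or HoxD gene called among the 10 tested. It was flat among the E12.5 embryos, at 8.65, 8.65, 8.57, 8.68 and 8.71, and read 7.15, 7.15, 6.99, 6.68 and 7.34 at E13.5 (-1.59, standard error 0.19, adjusted p = 5.31e-09). The neighbouring digit genes Hoxd13 (-0.68), Hoxd11 (-0.82) and Hoxa13 (-0.89) had values of the same sign below the fold threshold, and Hoxa10, which acts more proximally, had 0.62. In the list of 33 digit and interdigit genes, Hoxd12 was the 1 down-regulated gene and Adamts9 (1.12), a protease of the interdigital tissue, the 1 up-regulated gene, with 0.95 from its brightest probe set alone. None of the 4 HoxC genes was called, with the largest change in Hoxc8 (0.89, adjusted p = 0.0052). The limb type genes kept below a 2-fold change, Pitx1 at -0.67 (adjusted p = 4.16e-04), Isl1, a factor of the early hindlimb field, at -0.80 (adjusted p = 0.00118), Tbx4 at -0.48 (adjusted p = 8.59e-05) and Tbx5 at -0.20 (adjusted p = 0.348).

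Calb2, the calcium-binding protein calretinin, had the lowest fold change of all genes. It read 9.90, 9.53, 9.25, 9.21 and 9.47 at E12.5 and 6.08, 5.98, 6.23, 5.87 and 5.95 at E13.5 (-3.45, standard error 0.17, adjusted p = 3.27e-20). The level had been 6.45 ± 0.20 (SD, n = 4) at E10.5 and 9.45 ± 0.22 (SD, n = 5) at E11.5, so that Calb2 was high in the hindlimb on the arrays of E11.5 and E12.5 and low before and after. Hsd11b2, an enzyme that inactivates glucocorticoids, fell by 2.68 and Pmaip1, a pro-apoptotic protein of the Bcl2 family, fell by 2.29. In both, E12.5 replicate 1 was the highest array, at 9.66 against 8.79 to 8.94 and at 10.44 against 9.27 to 9.54. Cbln1, a secreted protein known from synapses, fell by 2.11 and Zic5, a zinc finger factor, fell by 1.64.

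**Figure D4:**
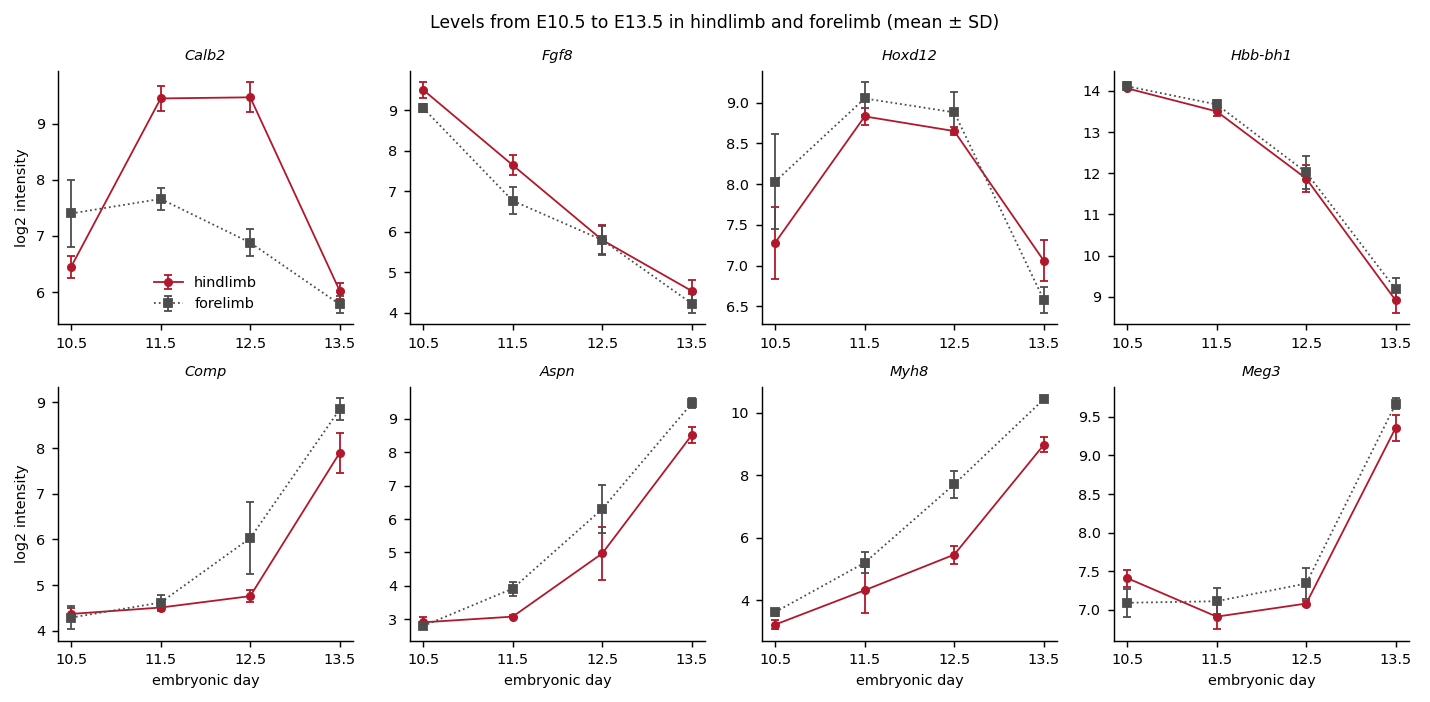
Mean log2 intensity ± SD of 8 genes in hindlimb (red circles, solid line; 4 arrays at E10.5 and 5 at each later stage) and forelimb (grey squares, dotted line; 5, 4, 5 and 5 arrays) against embryonic day, each panel with its own y axis. Hindlimb Calb2 is at 9.45 and 9.47 at E11.5 and E12.5 and at 6.02 at E13.5, where it lies close to the forelimb (5.78).

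Each list of a signalling pathway held 1 or 2 called genes, against 1.55% up-regulated and 0.396% down-regulated over all genes. Hedgehog, WNT, BMP, FGF, retinoic acid, Notch and insulin-like growth factor signals pattern the bud through ligands, receptors, inhibitors and target genes. Among secreted ligands and their modifiers, Gdf10, a member of the BMP family, rose from 8.36, 9.40, 9.28, 9.33 and 9.21 to 10.73, 10.98, 10.84, 11.12 and 10.73 (1.77, standard error 0.23, adjusted p = 2.95e-08). Ltbp3, which holds latent TGF beta in the matrix, rose by 1.25, and these were the 2 called genes of 41 in the BMP and TGF beta list. Fgfbp1 (1.57), a carrier of FGF proteins in epithelium, and Fgf8 were the called genes of 31 in the FGF list.

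Among WNT inhibitors, Frzb fell and Dkk2 rose, the 2 called genes of 44. Frzb, a secreted antagonist of young cartilage, read 9.61, 8.81, 8.65, 8.66 and 8.81 at E12.5 and 7.05, 7.27, 7.24, 7.11 and 6.79 at E13.5 (-1.81, standard error 0.13, adjusted p = 3.60e-15). Dkk2 read 8.30, 8.41, 8.95, 9.14 and 9.12 and then 9.74, 9.95, 9.91, 9.51 and 9.94 (1.02, adjusted p = 2.10e-05). Its fold change was 0.90 without E12.5 replicate 1, 0.93 without E12.5 replicate 2 and 0.99, 1.00 and 0.99 without E13.5 replicates 2, 3 and 5, each just under the threshold. Gli1, a transcription factor and direct target of hedgehog signals, read 6.36 to 6.57 and then 7.36 to 7.73 (1.05, adjusted p = 3.84e-08), the only called gene of 20 in the hedgehog list, and 1.00, just under the threshold, without E13.5 replicate 4. The receptor and target Ptch1 had 0.47, and the ligand Shh read 4.53 to 4.88 and then 4.35 to 4.93.

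In the retinoic acid list, the pair of called genes of 18 moved in opposite directions. Rdh10, which makes retinaldehyde from retinol, rose from 8.53 to 8.67 at E12.5 to 9.73 to 10.06 at E13.5 (1.28, adjusted p = 1.22e-12). Stra6, the membrane receptor that takes up retinol, fell by 1.04 (adjusted p = 5.70e-07), with -0.98 after quantile normalisation. Dlk1 was the called gene of 19 in the Notch list, and Pappa2 (1.29), a protease of IGF-binding proteins, that of 15 in the IGF list. Of 11 heterochronic and let-7 target genes, Dusp9, a phosphatase of MAP kinases, and Trim71, an RNA-binding protein of early embryos, were down-regulated, at -1.28 and -1.27. Over all genes 0.396% were down-regulated. Trim71 read 6.19, 5.55, 5.31, 5.32 and 5.77 and then 4.34, 4.26, 4.60, 4.07 and 4.52.

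Cell cycle genes shifted by little and mostly one way. None of 44 mitosis genes and none of 33 DNA replication genes was called. At an adjusted p under 0.05 with no fold threshold, 29 of the mitosis genes were lower and 1 was higher, and 25 of the replication genes were lower and 3 were higher, against 24.1% lower and 13.8% higher over all genes. Their medians were -0.30 and -0.35. The largest changes were in Dlgap5, a spindle protein (-0.83, adjusted p = 1.37e-11), and Cdc6, which loads the replicative helicase (-0.79, adjusted p = 1.36e-11). None of 27 hypoxia and glycolysis genes was called (median -0.09), with the largest change in the glucose transporter Slc2a3 (-0.69, adjusted p = 2.41e-06), which had 0.07 (adjusted p = 0.701) from its brightest probe set alone.

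Some red blood cell transcripts fell. Of 18 erythroid genes, 5 were down-regulated and none up-regulated (median -0.54), and the summed linear intensity was 33675 to 37472 at E12.5 and 19955 to 23891 at E13.5. At an adjusted p under 0.05 with no fold threshold, 10 were lower and 1 was higher. The highest change in the list was 0.59. Hbb-bh1, an embryonic beta-type globin, read 12.34, 12.09, 11.63, 11.67 and 11.62 and then 9.13, 8.45, 9.04, 9.14 and 8.76 (-2.96, standard error 0.14, adjusted p = 3.27e-20). Hba-x, the embryonic zeta globin, fell by 1.68, from 13.08 to 13.40 at E12.5 to 11.34 to 11.75 at E13.5. The third embryonic globin, Hbb-y, stayed near the top of the scale at 14.33 ± 0.03 and 14.13 ± 0.10 (SD, n = 5 each; -0.20, adjusted p = 0.0256). Trim10 (-1.58), Slc4a1 (-1.51), the anion exchanger of red cells, and Rhag (-1.20), an ammonium channel of red cells, were the other down-regulated members, and Alas2, which starts heme synthesis in red cells, had -0.99 (adjusted p = 9.33e-05). In the preceding step 9 of the 18 genes were down-regulated, in a comparison with the same E12.5 arrays and backgrounds of 0.583% up-regulated and 0.242% down-regulated genes. The globin genes are close copies, and cross-hybridisation was not tested.

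Surface ectoderm held genes of later epidermis among those up-regulated. Of 44 genes, 4 were up-regulated and none down-regulated (median 0.09), against 1.55% up-regulated over all genes. Krtdap, a secreted protein of differentiating keratinocytes, read 3.94, 3.61, 3.72, 3.72 and 3.49 at E12.5 and 5.03, 7.26, 6.22, 7.00 and 5.26 at E13.5 (2.46, standard error 0.25, adjusted p = 1.15e-10). Krt1, a keratin of the suprabasal layers, read 5.25 to 5.67 and then 6.02, 7.90, 6.92, 7.46 and 6.64 (1.52, adjusted p = 3.01e-07). Among the alternatives the adjusted p reached 0.00039 for Krtdap and 0.000949 for Krt1, and both stayed called. The desmosome protein Pkp1 (1.48) and Perp (1.14), a membrane protein of stratified epithelium, also rose. In all 4 genes, E13.5 replicates 2 and 4 were the highest arrays, as they were for Ibsp, Comp and Fgfbp1. The basal layer genes Krt5 (0.39), Krt14 (0.19) and Trp63 (-0.08) did not pass.

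Genes of other cell types changed in smaller number, to be read against 1.55% up-regulated over all genes. Of 34 genes of macrophages and other leukocytes, 4 were up-regulated, namely the scavenger and mannose receptors Mrc1 (1.23) and Stab1 (1.04), the transglutaminase subunit F13a1 (1.07) and the adaptor Dab2 (1.03). Without E12.5 replicate 1, F13a1 had 0.95 and Dab2 0.99, without E13.5 replicate 1 Dab2 had 0.99 (its brightest probe set alone gave 0.69), and without E13.5 replicate 4 Stab1 had 0.99. The macrophage receptor Csf1r had 0.57. Of 35 genes of endothelium and vessel wall, 2 were up-regulated, Lyve1 (1.43), a receptor of lymphatic endothelium that macrophages also carry, and Cspg4 (1.31), a proteoglycan of pericytes, while the pan-endothelial Pecam1 read 8.50 to 8.59 and then 8.42 to 8.72.

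Of 24 neuronal genes none was called. The neurofilament gene Nefl had 1.11 at an adjusted p of 0.00224, above the threshold, and passed when fitted on the 10 hindlimb arrays alone (adjusted p = 1.87e-04), while Tubb3 and Stmn2 had -0.81 and -0.74. Pmp22 (1.15), a myelin protein that fibroblasts also make, was the called gene of 21 in the list of Schwann cells, neural crest and melanocytes, where Sox10 had 0.07. None of 14 liver and plasma genes was called (largest change Fgb, -0.40), and of 12 heart genes the 1 called was Sln (1.17, or 2.32 from its brightest probe set alone), a regulator of the calcium pump that skeletal muscle also makes.

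Noncoding RNAs were among the up-regulated genes in a share near that of other genes. By RefSeq biotype, 28 of 1458 long noncoding RNA genes rose (1.92%) and 2 fell, against 248 that rose (1.51%) and 70 that fell of 16474 protein-coding genes. The medians were -0.06 and -0.07. This grouping was made after the values were seen and has no test. Of 31 imprinted genes, 7 were up-regulated and none down-regulated (median 0.31), and 4 of these are noncoding: Meg3, Rian and Mirg, which lie one after the other on chromosome 12 and are made from the maternal copy, and Kcnq1ot1. Meg3 read 7.05, 7.12, 7.05, 7.10 and 7.09 at E12.5 and 9.61, 9.40, 9.22, 9.19 and 9.40 at E13.5 over its 11 probe sets (2.28, standard error 0.09, adjusted p = 3.56e-23). Its E12.5 embryos were almost identical. Mirg rose from 6.16, 6.30, 6.33, 6.39 and 6.23 to 8.60, 8.73, 8.55, 8.67 and 8.39 (2.31), Rian rose by 1.78 (1.15 from its brightest probe set alone) and Kcnq1ot1 by 1.60. The coding genes of this list that rose were Dcn (1.65), Plagl1 (1.28) and Dlk1 (1.24), which lies next to Meg3 and is made from the paternal copy.

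LOC102631979, which has 1 probe set, had the highest change of the noncoding genes, from 6.66, 6.59, 6.47, 6.67 and 6.62 to 10.11, 9.68, 9.55, 9.56 and 9.55 (3.09, standard error 0.17, adjusted p = 1.95e-18). Malat1, an abundant RNA of the nucleus, read 7.54, 6.44, 7.28, 7.44 and 7.58 at E12.5 and 9.53, 8.94, 9.00, 7.62 and 9.06 at E13.5 (1.57, standard error 0.24, adjusted p = 1.00e-06). The E13.5 value nearest to E12.5 was that of replicate 4, the array with the low ribosomal RNA signal. Gas5 (1.59), Snhg1 (1.15) and Snhg3 (1.46), hosts of small nucleolar RNAs, also rose, and their stages did not overlap. The 28 genes had a median of 1.32 here, of 1.24 in the forelimb and of 0.01 in the preceding hindlimb step. They were chosen by their call in this hindlimb step, which sets the median of 1.32. The preceding step shares the E12.5 arrays, with the opposite sign, so its median is not independent of that choice. On the 2 whole-embryo arrays of each stage, 24 of the 28 were higher at E13.5. Their median difference there was 0.22, against -0.02 over all genes. Malat1 read 5.11 and 5.69 at E12.5 and 5.35 and 5.52 at E13.5 on these arrays, and Meg3 7.19 and 7.41 and then 8.15 and 8.36. On those arrays the spiked control Dap read 10.89 to 11.60 against 3.04 to 3.51 on the 10 hindlimb arrays, so levels are not comparable between the sets. The larger 3′ to 5′ distances at E13.5 move with this group of RNAs, and their part in it was not tested.

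Of the 28 RNAs, 5 (Meg3, Rian, Mirg, Mir22hg and Ftx) span hairpins of microRNAs in RefSeq, 18 in all. The arrays measured the host RNAs and no microRNA. The mature sequences below (RefSeq, GRCm38.p6, 5′ to 3′, seed of bases 2 to 8 in capitals) show which microRNAs lie within the hosts of Mirg, Rian, Meg3 and Mir22hg, and the last pair shares the seed GGUUGCC.
mmu-miR-22-3p (within Mir22hg): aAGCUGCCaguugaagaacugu
mmu-miR-770-5p (within Meg3): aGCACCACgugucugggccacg
mmu-miR-370-3p (within Rian): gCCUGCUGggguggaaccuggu
mmu-miR-410-3p (within Mirg): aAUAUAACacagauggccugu
mmu-miR-377-3p (within Mirg): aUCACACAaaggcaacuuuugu
mmu-miR-453 (within Mirg): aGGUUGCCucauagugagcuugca
mmu-miR-496a-5p (within Mirg): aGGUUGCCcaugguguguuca
Mir22hg rose from 4.58, 4.79, 4.64, 4.58 and 4.73 to 5.95, 5.92, 6.29, 6.37 and 5.50 (1.34) and Ftx, a noncoding RNA near Xist, by 1.19.

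Among the 10 highest genes, Hypk and Tceal7 belong to no list. Hypk, a chaperone bound to the ribosome, was near the low end of the scale at E12.5, at 3.41, 3.45, 3.53, 3.48 and 3.51. It read 6.67, 6.30, 6.69, 6.61 and 6.17 at E13.5 on its 1 probe set (3.01, standard error 0.17, adjusted p = 1.95e-18). It had -0.12 in the preceding step. Tceal7, a small nuclear protein, rose from 5.18, 6.37, 6.34, 5.88 and 5.76 to 9.14, 8.90, 8.99, 9.44 and 8.89 (3.17).

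In the forelimb, the same day changed about as many genes upward and more downward. There 258 genes (1.42%) were called higher at E13.5 and 235 (1.29%) lower, and after quantile normalisation it was 343 and 138. The 190 genes up-regulated in both limbs are 67.4% of those of the hindlimb and 73.6% of those of the forelimb, and the 59 down-regulated in both are 81.9% and 25.1%. Of the 354 genes called in the hindlimb, 353 had the same sign in the forelimb. The share of all genes with the same sign is not given here. Per the methods, forelimbs and hindlimbs of a stage come from the same litter, so this agreement does not separate stage from litter. In the forelimb 12 of 19 cartilage matrix, 12 of 27 tendon, 23 of 57 contraction and 5 of 18 erythroid genes passed in the direction seen in the hindlimb. Of these lists, only the erythroid list had a member that passed in the other direction, with 1 gene up-regulated in the forelimb.

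The difference between the changes of the limbs was tested gene by gene. It was called for 15 genes, 9 with the higher change in hindlimb (0.0495%) and 6 with the lower (0.033%). Calb2 fell by 3.45 in the hindlimb and fell by 1.10 in the forelimb, where it was at 6.88 ± 0.24 (SD, n = 5) at E12.5 and 5.78 ± 0.15 (SD, n = 5) at E13.5, a difference of -2.35 (standard error 0.23, adjusted p = 1.68e-08). The level was thus higher in hindlimb at E12.5 and close to that of the forelimb at E13.5. Ibsp rose by 1.23 in hindlimb and by 3.69 in forelimb, from 3.24 ± 0.13 to 6.92 ± 0.59 (SD, n = 5 each), a difference of -2.46 (standard error 0.31, adjusted p = 3.66e-06).

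Atp1b4 (2.80 in hindlimb and 4.22 in forelimb), Abca8a, a lipid transporter (1.53 and 3.49), and Ecrg4, a secreted peptide precursor (1.72 and 2.90), rose in both limbs and more in forelimb. Cxcl13, a chemokine, had -0.12 in hindlimb, where the E12.5 embryos ranged from 4.73 to 6.15, and 1.92 in forelimb (difference -2.05, standard error 0.33, adjusted p = 1.63e-04).

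The 9 genes with the higher change in hindlimb were A2m, Trhde, Sbspon, Cd83, Npr3, Col14a1, Adgrb3, Vnn1 and Lsamp. A2m, a protease inhibitor, had 0.95 in hindlimb and -0.61 in forelimb (difference 1.56, standard error 0.21, adjusted p = 9.28e-06). It read 6.25, 6.57, 6.43, 6.51 and 6.43 and then 7.48, 7.60, 7.25, 7.28 and 7.35 in hindlimb. The forelimb had stood at 7.56 ± 0.17 at E12.5 and was at 6.95 ± 0.11 at E13.5 (SD, n = 5 each). Trhde, a peptidase of thyrotropin-releasing hormone, had 1.04 and -0.46 (difference 1.50, adjusted p = 3.66e-06), with a hindlimb change of 0.99 without E12.5 replicate 5 or E13.5 replicate 5. Sbspon, a matrix protein, had 2.60 and 1.24, with a difference of 1.36 that was 0.91 (adjusted p = 0.0233) from its brightest probe set alone. Cd83, a membrane protein of immune cells, had 0.92 and -0.40, and Npr3, the clearance receptor of natriuretic peptides, 0.40 and -0.85. Without E13.5 replicate 1 the hindlimb change of Cd83 was 1.01.

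**Figure D5:**
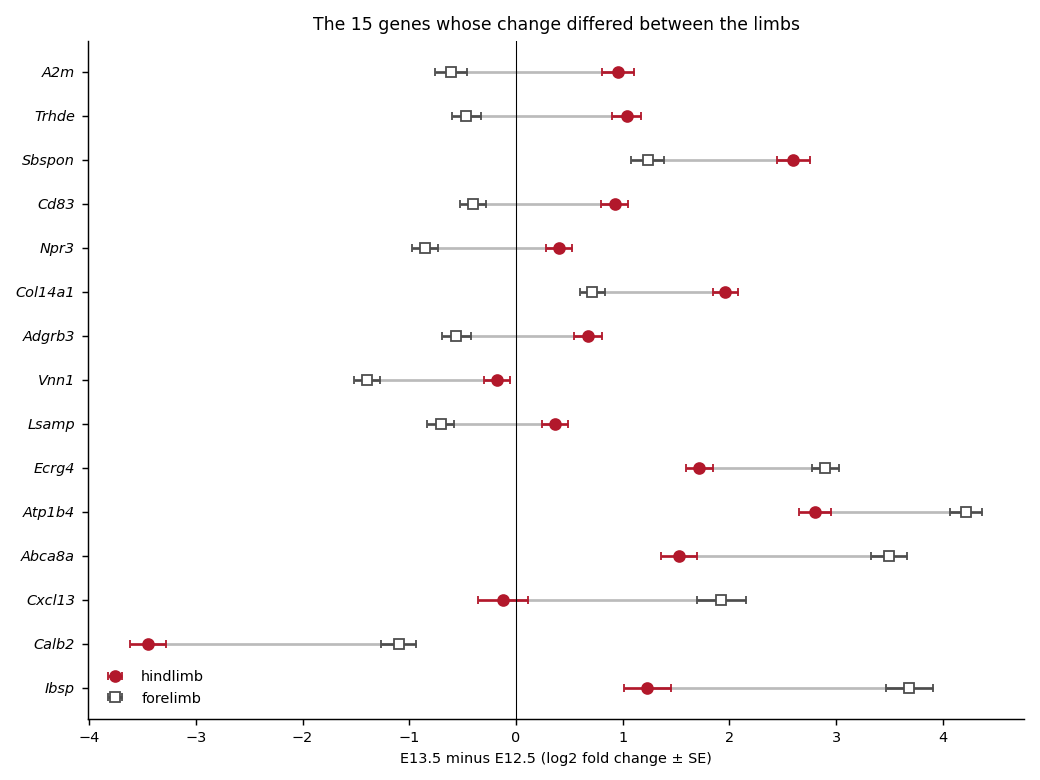
Log2 fold change from E12.5 to E13.5 ± standard error in hindlimb (red circles) and forelimb (open squares) for the 15 genes whose change differed between the limbs, 5 arrays per group. Calb2 falls by 3.45 in hindlimb and by 1.10 in forelimb, and Ibsp lies at 1.23 and 3.69.

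More digit, progenitor and ridge genes were down-regulated in the forelimb, as was true of all genes (1.29% against 0.396%), and the difference was called for none of them. Of the 33 digit and interdigit genes, 11 were down-regulated in forelimb and 1 in hindlimb, with medians of -0.57 and -0.18. Of the progenitor factors it was 8 and 3 of 36, and of the ridge genes 5 and 2 of 26. Hoxd12 had -2.30 in forelimb against -1.59 in hindlimb (difference 0.71, adjusted p = 0.132). Aldh1a2, which makes retinoic acid between the digits, had 0.28 in hindlimb and -1.46 in forelimb, a difference with an adjusted p of 0.0142. Msx1, a homeobox factor of distal mesenchyme, had -0.18 and -1.08, a difference with an adjusted p of 0.00173, above the threshold of 0.001.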

How the data were processed

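Total RNA of single limb buds or embryos was labelled in 2 amplification cycles and hybridised to Affymetrix mouse genome arrays. The authors background-corrected, normalised and summarised the probe sets with RMA (version not given in the sources used here), and the deposited intensities are linear, so log2 was taken here. Of 45101 probe sets, 34958 with 1 gene symbol were averaged per gene (18194 genes, 9182 with 1 probe set), while 932 with several symbols and 9211 unlisted were left out. A single limma fit (limma 3.58.1, statmod 1.5.0, R 4.3.3) took in the 51 arrays of all 14 groups and left 37 degrees of freedom for the spread. Its moderated two-sided p-values were adjusted over all genes. The difference between limbs was the contrast of both changes. Groups follow the array titles. The number of arrays limits the precision. The fit was tested on simulated data.

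The design, lists and named genes were chosen with earlier results of these data known. Named are the 10 highest and 10 lowest called genes without overlap, up to 4 called genes of each list of largest change (otherwise the largest), the 5 highest and 5 lowest called differences and the 4 limb type genes. Every other gene given with values (further list members, markers, the noncoding genes outside the lists, Col14a1 and Ecrg4 among them) and the promoters shown were chosen after their values were seen. Of 861 list genes, 51 had no probe set of their own by exact symbol and were not analysed here. RefSeq tables (GRCm38.p6) gave biotypes for 18146 genes and the sequences printed. Alternatives were the 10 arrays alone, 38 limb arrays, removal of 2 arrays of contradictory labels, the probe set of highest mean, quantile normalisation, a mean log2 of 6 or greater, a variance trend, replicate blocks, an adjusted p of 0.05, and each hindlimb array left out. The lists without E12.5 replicate 1 or E13.5 replicate 4 were added after seeing the data.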

Additional observations from a re-analysis of the deposited data

Results flagged for a closer look

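In the 190 sets of 5 arrays examined (the 95 named genes at each stage), 23 had 1 array that stood apart, with a gap to its nearest neighbour of over 0.71 of the group's range, where chance gives about 1 in 20. At E12.5 replicate 1 was that array in 16 of them. It was the lowest for Aspn (3.59 against 5.18 to 5.56), Myh8 (4.95), Epyc (4.40), Acan (5.63), Matn1 (5.21), Mef2c (8.17), Col6a3 (8.63), Chrna1 (6.97), Myh3 (9.00), Gdf10 (8.36) and Lyve1 (4.40), all higher at E13.5. It was the highest for Hsd11b2 (9.66), Pmaip1 (10.44), Frzb (9.61), Dusp9 (8.76) and Dlgap5 (7.79), which have lower values at E13.5. For Pitx1 the E12.5 array that stood apart was replicate 2 (10.42 against 10.69 to 10.76).

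At E13.5 replicate 1 stood apart for LOC102631979 (10.11), Tnmd (6.81) and Dab2 (8.97), replicate 3 for Lhx9 (8.52) and replicate 4 for Mef2c (9.27) and Slc2a3 (7.56). Replicate 4 of E13.5 also had the low signal at the 5′ end of 18S ribosomal RNA (6.24) and the lowest mean correlation with its group (0.9939 against 0.9955 to 0.9960).

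The change from E12.5 to E13.5 differed between the limbs by the test of that difference for the 10 named genes, with hindlimb minus forelimb values of 1.56 for A2m, 1.50 for Trhde, 1.36 for Sbspon, 1.33 for Cd83, 1.25 for Npr3, -2.46 for Ibsp, -2.35 for Calb2, -2.05 for Cxcl13, -1.96 for Abca8a and -1.42 for Atp1b4.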

How the results depend on the processing

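Single genes were followed through the alternatives only where named. No called change of a named gene turned its direction under any alternative run. Of the named changes that were not called, that of Slc2a3 turned from -0.69 to 0.07 with its brightest probe set alone. That of Cxcl13 turned from -0.12 to 0.03 without E12.5 replicate 3. The hindlimb calls, 282 higher and 72 lower, were 214 to 351 and 54 to 90 under the alternatives that keep all 10 arrays and the thresholds, and 252 to 297 and 65 to 84 with 1 array left out. At an adjusted p under 0.05 with no fold threshold they were 2509 and 4387, so that more genes were lower than higher. The genes whose change differed between limbs, 9 higher and 6 lower, were 5 and 1 among genes of a mean log2 of 6 or greater, 285 and 211 at an adjusted p under 0.05, and 8 to 10 and 6 to 10 with 1 array left out (10 lower without hindlimb E13.5 replicate 4). With the filter on the mean, which tests fewer genes, the lower list genes numbered 9 against 15 and the lower calls of the preceding step 12 against 44. With quantile normalisation the lower calls of the forelimb numbered 138 against 235, and the cause was not tested. The 95 higher list genes were 82 without E12.5 replicate 1 and 87 without E13.5 replicate 4.

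The embryos of the stages are different animals, and deviations of same-numbered hindlimb arrays correlated at -0.057 to 0.156, so the numbers do not pair them. The replicate block gave 281 higher and 69 lower calls. Same-numbered forelimbs and hindlimbs correlated at 0.032 to 0.347 and matched in Xist in 10 of 10, and a random replicate block of forelimb and hindlimb gave 12 higher and 6 lower differences. Of the values of named genes under the alternatives, 26 changes lost the call and 4 gained it, against 1658 on the same side, and 1 difference lost it against 163. No detection calls were used, and a change of a gene whose lower group lies near the background may be understated.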
